A study of Mus musculus with 6 samples.

Results

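Interferon-induced genes and GTPases are described here in skeletal muscle of 6 mice, 3 labelled transgenic (TG) and 3 labelled wild type (WT). The set was given as 40 gene symbols, and a member was measured where a probe set of the Affymetrix MoGene array carried that symbol alone. This held for 33 of the 40 members, among 19938 genes tested in all. Isg15, Gbp2, Gbp6, Igtp, Irgm2 and Tgtp1 were listed only on probe sets shared with other genes, and Ifi44 on no probe set, so these 7 have no value of their own.

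Each array stood for a separate mouse, and the series is titled for SOCS-3, the suppressor of cytokine signalling encoded by Socs3, in muscle. The labels give neither what the transgene carries nor its promoter, and neither the strain, age and sex of the mice nor the muscle taken. Socs3 itself measured 7.12, 7.25 and 7.07 on the TG arrays, against 7.43, 7.41 and 7.37 on the WT arrays, and since the labels do not say which transcript the transgene makes, this value does not check them. RNA came from frozen tissue, so lower RNA per cell and fewer cells of a type cannot be told apart in any value below. The 12 skeletal muscle fibre markers, which include actin, creatine kinase and titin, averaged 13.77 to 13.79 on the TG arrays and 13.79 to 13.85 on the WT arrays, on the log2 scale of the deposited values. Array medians over all probe sets lay between 5.98 and 6.04, and 3 arrays per group limited the precision of every value.

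Interferons are secreted proteins that cells release when they sense viral nucleic acid or when lymphocytes are activated. Type I interferons act through a complex that holds IRF9 and binds the interferon-stimulated response element (ISRE), and interferon gamma acts mainly through a shorter palindromic element, with IRF1 as a second wave. The induced proteins sense or degrade RNA, block viral entry and budding, and, in the mouse, include large families of GTPases that act on vacuoles holding parasites and bacteria. SOCS proteins are feedback inhibitors of cytokine receptors, and SOCS1 is the family member best known for acting on interferon receptors.

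Promoter windows are printed first for 6 guanylate-binding and immunity-related GTPase members, the families described first below, and for 3 members of other roles. They come from RefSeq (GRCm38.p6), which holds promoters, from 250 bases before to 50 after the gene start, for 30 of the 40 members. Iigp1, Mx1, Mx2, Gbp6, Usp18, Oas2, Rtp4, Dhx58, Zbp1 and Parp14 had none in that table. Capitals mark the ISRE core, GAAA and GAAA with any 2 bases between them, searched on both strands, and the palindromic STAT element, TTC and GAA with any 3 bases between them, and each window runs 5′ to 3′ along the gene.
Igtp: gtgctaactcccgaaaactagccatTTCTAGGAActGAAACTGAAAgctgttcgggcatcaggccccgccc
Irgm2: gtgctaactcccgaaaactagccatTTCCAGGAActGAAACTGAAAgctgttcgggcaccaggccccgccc
Tgtp1: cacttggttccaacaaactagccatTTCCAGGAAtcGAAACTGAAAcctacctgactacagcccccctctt
Irgm1: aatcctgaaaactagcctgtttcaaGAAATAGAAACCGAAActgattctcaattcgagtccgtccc
Gbp7: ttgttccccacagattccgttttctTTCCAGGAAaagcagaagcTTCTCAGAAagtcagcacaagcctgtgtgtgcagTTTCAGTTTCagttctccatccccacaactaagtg
Gbp3: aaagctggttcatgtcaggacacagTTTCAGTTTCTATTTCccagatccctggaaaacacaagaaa
Irf1: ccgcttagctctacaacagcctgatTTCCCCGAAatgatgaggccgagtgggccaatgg
Ifit1: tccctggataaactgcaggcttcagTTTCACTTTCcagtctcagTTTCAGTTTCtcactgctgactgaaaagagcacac
Oas1a: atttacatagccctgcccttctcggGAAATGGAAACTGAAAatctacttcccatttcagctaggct

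The windows lie at chr11:58199486-58199556 (Igtp, plus strand), chr11:58214877-58214947 (Irgm2, plus), chr11:48992289-48992359 (Tgtp1, minus), chr11:48871410-48871475 (Irgm1, minus), chr3:142530205-142530317 (Gbp7, plus), chr3:142559974-142560039 (Gbp3, plus), chr11:53769899-53769957 (Irf1, plus), chr19:34640760-34640838 (Ifit1, plus) and chr5:120907505-120907570 (Oas1a, minus). In Igtp, Irgm2 and Tgtp1 the STAT element and the ISRE core were 2 bases apart. The Oas1a promoter also held a STAT element, 98 bases before the gene start, which its printed window does not reach. The ISRE core was found in 17 of the 30 member promoters (56.7%) and in 3.99% of the 27025 genes with a promoter in the table. The STAT element was found in 11 of the 30 (36.7%), against 9.55% of all genes, and both motifs in 7 (23.3%), against 0.614%. All 7 guanylate-binding and immunity-related GTPase members with a promoter held the ISRE core, and 4 of them the STAT element too. Matches to overlapping cores were counted once per gene, and the STAT element and an ISRE core overlapped in Bst2. A match is a run of letters and not a measured binding site.

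Transcript levels were compared between the TG and WT arrays over all genes tested, to ask how the transgene went with muscle gene expression. None of the 33 measured members passed an adjusted p of 0.05 (limma, Benjamini-Hochberg over 19938 genes), and the smallest adjusted p was 0.455, for Iigp1. The same test called 1 gene in all, or 0.00502% of those tested. The differences farthest below 0 were those of the immunity-related GTPase Iigp1 and the guanylate-binding proteins Gbp3 and Gbp7. Irgm1, the other measured immunity-related GTPase, stood at -0.09. The members of the nucleic acid sensing, IFIT and oligoadenylate synthetase groups lay on both sides of 0. Of the 33 members, 23 had a log2 difference, TG minus WT, below 0, which is 69.7% against 56.2% of all genes, and their median was -0.09 against -0.02 over all genes. Arrays set to a common median left 19 members below 0, and the share of all genes below 0 was not counted in that setting.

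At an unadjusted p under 0.05, 4 members were lower in TG (Iigp1, Gbp7, Ifi35 and Gbp3), against a background of 4.79% of all genes, which is 955 genes. In the same test 1 member, Oas1a, was higher, against 1.96% of all genes. In 5 members the highest TG array was still below the lowest WT array (Iigp1, Gbp7, Ifi35, Irf1 and Mx1), against 7.76% of all genes, and in 2 members (Oas1a and Ifit2) the reverse held, against 4.52%. Differences above 0.25 in size were found in 5 members, or 15.2%, against 6.35% of all genes. The plot of differences by role shows where these members stand.

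**Figure D1:**
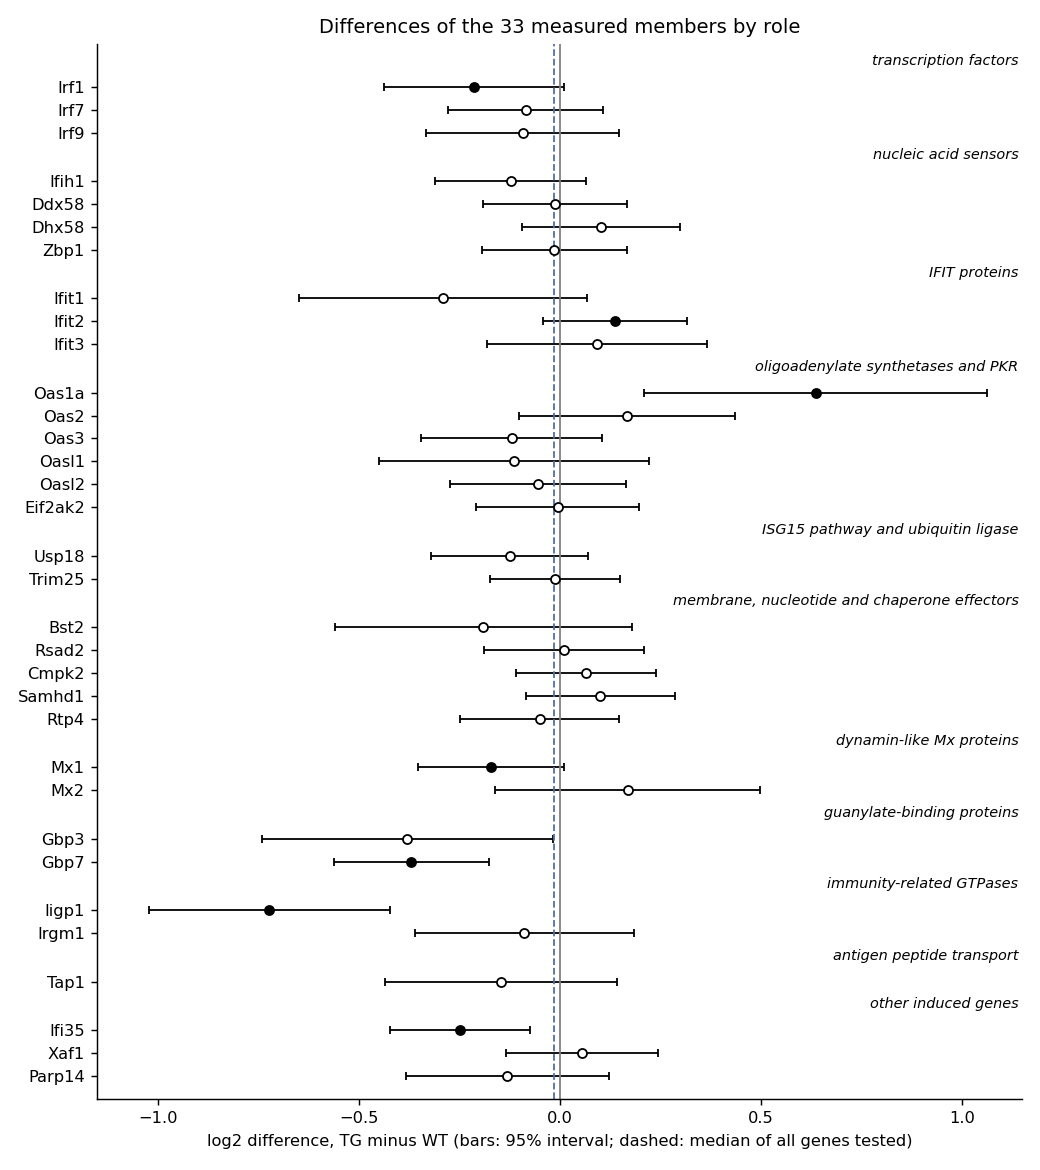
Log2 difference, TG minus WT (x axis), of the 33 measured members, grouped by role down the page. Points are limma estimates with 95% intervals, filled where the TG and WT arrays do not overlap, and the dashed line is the median of all genes tested (-0.02). Iigp1, Gbp3 and Gbp7 stand farthest to the left and Oas1a farthest to the right.

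The immunity-related GTPases coat the vacuole membranes around intracellular parasites and, in the mouse, are strongly induced by interferon gamma. Iigp1 (Irga6), an effector of this family, measured 6.24, 6.22 and 6.26 on the 3 TG arrays, against 7.26, 6.89 and 6.73 on the 3 WT arrays, on the log2 scale. The TG arrays were close together and all WT arrays lay above them, with WT array 1 the highest. Its log2 difference was -0.72 (SE 0.13, 95% interval -1.02 to -0.42), a 1.65-fold lower level in TG, and did not pass over all genes (limma, adjusted p = 0.455). It ranked 27th of all genes by p. Without WT array 1 the difference was -0.57, and without WT array 3 it was -0.84.

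Irgm1, a regulatory member that keeps the effector GTPases inactive on the cell's own membranes, measured 7.85, 7.88 and 7.90 on the TG arrays, against 8.24, 7.83 and 7.82 on the WT arrays. WT array 1 stood above the other 5 arrays, and WT arrays 2 and 3 lay below every TG array. The difference was -0.09 (SE 0.12; limma, adjusted p = 0.896), with an interval of -0.36 to 0.18.

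Igtp (Irgm3), Irgm2 and Tgtp1 (Irgb6) belong to the same family, and their probe sets are shared with a near-identical relative, so the following values belong to the probe sets and to no gene. The probe set annotated to both Irgm2 and Igtp measured 6.92, 6.81 and 6.97 on the TG arrays, against 7.54, 7.20 and 7.11 on the WT arrays. Of the probe sets annotated to Tgtp1 and its copy Tgtp2, one measured 6.67, 6.63 and 6.86 in TG, against 7.85, 7.38 and 6.96 in WT. The other measured 6.86, 6.85 and 7.02 in TG, against 7.91, 7.55 and 7.17 in WT. All 3 of these probe sets had every TG array below every WT array, a pattern shown by 6.76% of the 35557 probe sets, and WT array 1 was the highest in each. Of all 7 shared probe sets, 0 had every TG array above every WT array, against 5.04% of probe sets. Their differences were -0.38 (SE 0.12), -0.68 (SE 0.22) and -0.64 (SE 0.19), with unadjusted p of 0.0214, 0.0229 and 0.0140 in the limma fit over every probe set, where 3.4% were lower at an unadjusted p under 0.05. None passed after adjustment, and the smallest adjusted p of the 3 was 0.799. Because copies of one gene share sequence, these probe sets are not independent of each other.

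**Figure D2:**
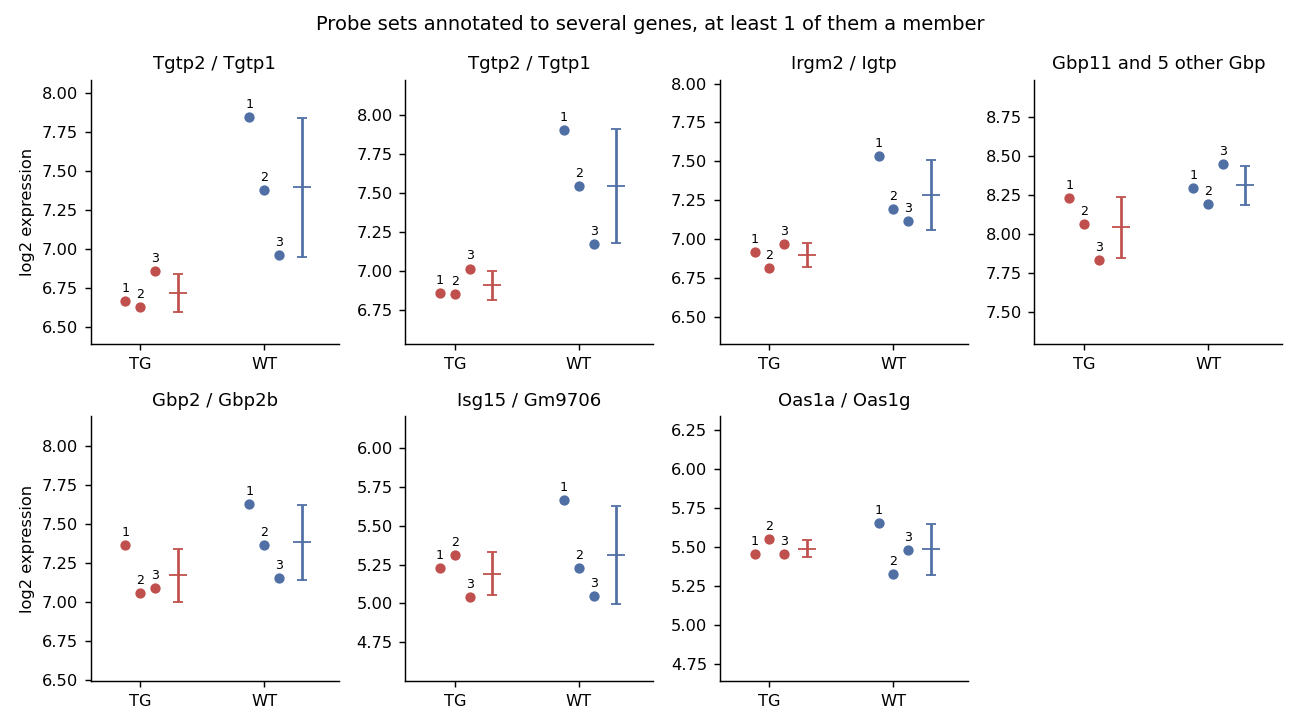
Log2 expression (y axis, each panel spanning the same range of log2 units) on the TG and WT arrays of the 7 probe sets that list a member beside other genes. Points are arrays with their replicate number, and the bar to the right is the mean with its SD. The 3 immunity-related GTPase probe sets (Tgtp2 / Tgtp1 in 2 panels and Irgm2 / Igtp) have all TG arrays below all WT arrays, and the other 4 overlap.

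Guanylate-binding proteins are larger GTPases that assemble on pathogen vacuoles and on bacteria. Gbp7 measured 7.21, 7.28 and 7.16 on the TG arrays, against 7.72, 7.53 and 7.50 on the WT arrays. The groups did not overlap, and the gap between them was wider than the range within TG but not wider than that within WT. The difference was -0.37 (SE 0.08, 95% interval -0.56 to -0.18; limma, adjusted p = 0.558), or 1.29-fold lower in TG.

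Gbp3 measured 6.59, 6.44 and 6.63 on the TG arrays, against 7.18, 7.05 and 6.56 on the WT arrays. WT array 3 lay among the TG arrays and the other 2 WT arrays lay above them. The difference was -0.38 (SE 0.16; limma, adjusted p = 0.738), -0.56 without WT array 3 and -0.26 without WT array 1.

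The probe set annotated to Gbp2 and Gbp2b together had a difference of -0.21 (SE 0.15), and the one annotated to 6 Gbp genes, Gbp6 among them, had -0.27 (SE 0.12), both with overlapping groups. Among the other genes of the pathway, 6 further Gbp genes had a probe set of their own, looked at together after their values were seen, and all 6 lay below 0, with a median of -0.23. Gbp4 had the lowest of them, at 6.84, 6.99 and 7.06 on the TG arrays, against 7.74, 7.23 and 7.45 on the WT arrays. Its groups did not overlap, and the difference was -0.51 (SE 0.13; limma, adjusted p = 0.660). Gbp5, Gbp11, Gbp2b, Gbp8 and Gbp9 stood at -0.30, -0.28, -0.17, -0.16 and -0.09 with overlapping groups. Cross-hybridisation between these related genes was not tested.

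The Mx proteins are dynamin-like GTPases that trap viral nucleoproteins. Mx1 measured 3.27, 3.26 and 3.20 on the TG arrays, against 3.54, 3.32 and 3.39 on the WT arrays, without overlap, a difference of -0.17 (SE 0.08; limma, adjusted p = 0.740). Mx2 had the opposite sign, 0.17 (SE 0.14), at 3.91, 3.68 and 3.38 in TG, against 3.54, 3.60 and 3.32 in WT, and its groups overlapped. Whether signal this low is above background could not be assessed, since raw intensities were not analysed here.

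**Figure D3:**
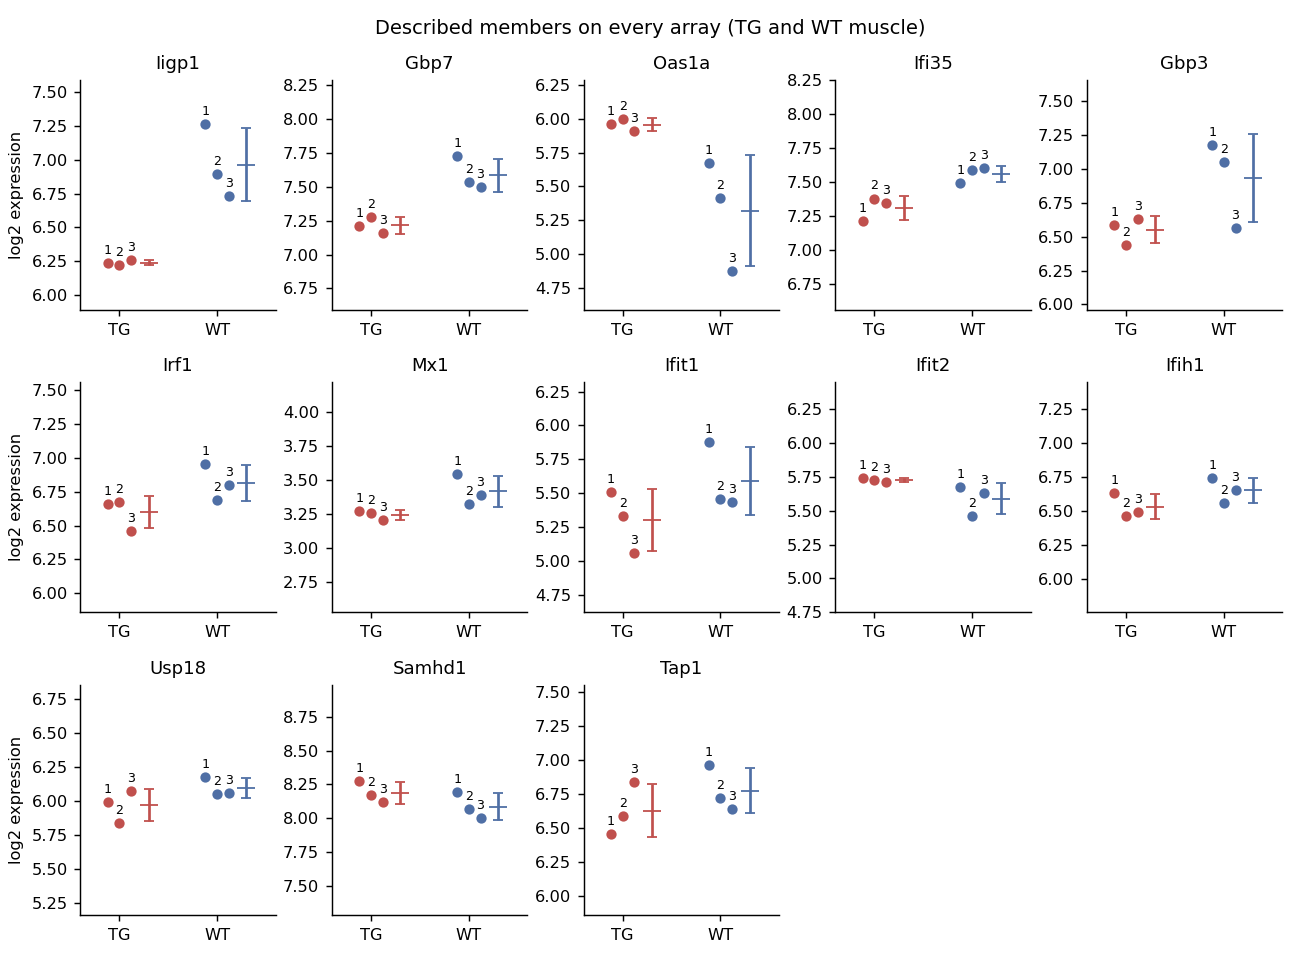
Log2 expression (y axis, each panel spanning the same range of log2 units) of the 13 members described with their value on every array, on TG and WT arrays, ordered by unadjusted p. Points are arrays with their replicate number, and the bar to the right is the mean with its SD. The 3 TG arrays of Iigp1 sit at 6.22 to 6.26, below all WT arrays, and those of Oas1a at 5.907 to 6.001, above all WT arrays.

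Of the interferon regulatory factors, IRF1 drives interferon gamma-induced genes, IRF7 amplifies type I interferon production and IRF9 is a DNA-binding part of the complex that type I interferons activate. Irf1 measured 6.66, 6.67 and 6.46 on the TG arrays, against 6.95, 6.69 and 6.80 on the WT arrays. The groups did not overlap, by a margin as narrow as 6.67 in TG against 6.69 in WT. The difference was -0.21 (SE 0.10; limma, adjusted p = 0.740), and a second Irf1 probe set gave -0.01, at 6.48, 6.12 and 6.35 in TG and 6.33, 6.21 and 6.46 in WT. Irf7 and Irf9 stood at -0.09 each (SE 0.08 and 0.10), with overlapping groups.

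The cytosolic sensors bind viral nucleic acid and start interferon production. Ifih1 (MDA5), a sensor of long double-stranded RNA, measured 6.64, 6.46 and 6.50 on the TG arrays, against 6.74, 6.56 and 6.66 on the WT arrays. The groups overlapped, with a difference of -0.12 (SE 0.08; limma, adjusted p = 0.802). Ddx58 (RIG-I), the sensor of RNA ends, stood at -0.01, Dhx58 (LGP2), which modulates both, at 0.10 and the Z-nucleic acid sensor Zbp1 at -0.01, none of them with an interval that excluded 0.

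The IFIT proteins bind foreign RNA and block its translation, and the 3 members, neighbours on chromosome 19, did not share a sign. Ifit1 measured 5.51, 5.33 and 5.06 on the TG arrays, against 5.88, 5.46 and 5.44 on the WT arrays, with TG array 1 inside the WT range. Its difference was -0.29 (SE 0.15; limma, adjusted p = 0.777), -0.15 without WT array 1 and -0.17 without TG array 3. Ifit2 measured 5.74, 5.73 and 5.71 in TG, against 5.68, 5.46 and 5.63 in WT. Its TG arrays lay above all WT arrays, at a difference of 0.14 (SE 0.08; limma, adjusted p = 0.791). Ifit3 stood at 0.09 (SE 0.12) with overlapping groups.

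The oligoadenylate synthetases make the messenger that activates RNase L, and the protein kinase PKR (Eif2ak2) halts translation on double-stranded RNA. Oas1a measured 5.963, 6.001 and 5.907 on the TG arrays, against 5.672, 5.418 and 4.874 on the WT arrays. The TG arrays lay close together above a WT group whose range was wider than that of either group in any other measured member, with WT array 3 the lowest of all. The difference was 0.64 (SE 0.18, 95% interval 0.21 to 1.06; limma, adjusted p = 0.676), or 1.55-fold higher in TG, and 0.41 without WT array 3. A probe set annotated to both Oas1a and its neighbour Oas1g showed no such gap, at 5.46, 5.55 and 5.46 in TG and 5.65, 5.33 and 5.48 in WT, a difference of 0.004. Oas2 stood at 0.17, Oas3 at -0.12, Oasl1 at -0.11, Oasl2 at -0.05 and Eif2ak2 at -0.01, with overlapping groups in all 5.

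ISG15 is a ubiquitin-like tag, USP18 removes it and also restrains the type I interferon receptor, and the ligase TRIM25 activates RIG-I. Usp18 measured 5.99, 5.84 and 6.08 on the TG arrays, against 6.18, 6.05 and 6.06 on the WT arrays, and only TG array 3 reached the WT range. The difference was -0.13 (SE 0.08; limma, adjusted p = 0.802), and Trim25 stood at -0.01. The probe set annotated to Isg15 and Gm9706 gave -0.12 (SE 0.17) with overlapping groups.

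Of the effectors that act on membranes and nucleotides, Samhd1, which depletes deoxynucleotides, measured 8.27, 8.17 and 8.12 on the TG arrays, against 8.19, 8.07 and 8.00 on the WT arrays, a difference of 0.10 (SE 0.08; limma, adjusted p = 0.823). The groups overlapped. Bst2 (tetherin), which holds budding virions on the cell, stood at -0.19 (SE 0.16), with WT array 1 at 8.14 and TG array 3 at 7.48 as its extremes. Rsad2 (viperin), Cmpk2, its neighbour that supplies nucleotides, and the receptor-transporting protein Rtp4 stood at 0.01, 0.06 and -0.05.

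Tap1, a subunit of the peptide transporter for MHC class I, measured 6.45, 6.59 and 6.84 on the TG arrays, against 6.96, 6.72 and 6.64 on the WT arrays, and the groups overlapped at a difference of -0.15 (SE 0.12; limma, adjusted p = 0.836), or -0.05 without WT array 1. Ifi35, a cytosolic interferon-induced protein that binds NMI, measured 7.21, 7.38 and 7.34 in TG, against 7.49, 7.59 and 7.60 in WT. Its groups did not overlap, and the difference was -0.25 (SE 0.07, 95% interval -0.42 to -0.07; limma, adjusted p = 0.679). Parp14, an ADP-ribosyltransferase, stood at -0.13 and Xaf1, a binding partner of XIAP, at 0.05.

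The members also differed between mice of a group. WT array 1 held the highest value of 12 members, or 36.4%, against 13.7% of all genes, and TG array 1 that of 9, or 27.3%, against 13.5%. TG array 2 held the lowest value of 11 members, or 33.3%, against 17.9% of all genes. All 4 measured guanylate-binding and immunity-related GTPase members, Gbp3, Gbp7, Iigp1 and Irgm1, were highest on WT array 1. Their median SD was 0.04 over the TG arrays and 0.25 over the WT arrays, against 0.10 in each group over all genes, whereas for the other 29 members it was 0.12 in TG and 0.10 in WT. The map of members by array shows the higher values of these 4 on WT array 1, with a median deviation of 0.38, against 0.05 for the other 29. Of those 29, 8 were also highest on WT array 1, or 27.6%, against 13.7% of all genes. Ifit1 and Bst2 stood there at 0.43 and 0.40 above their own means.

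**Figure D4:**
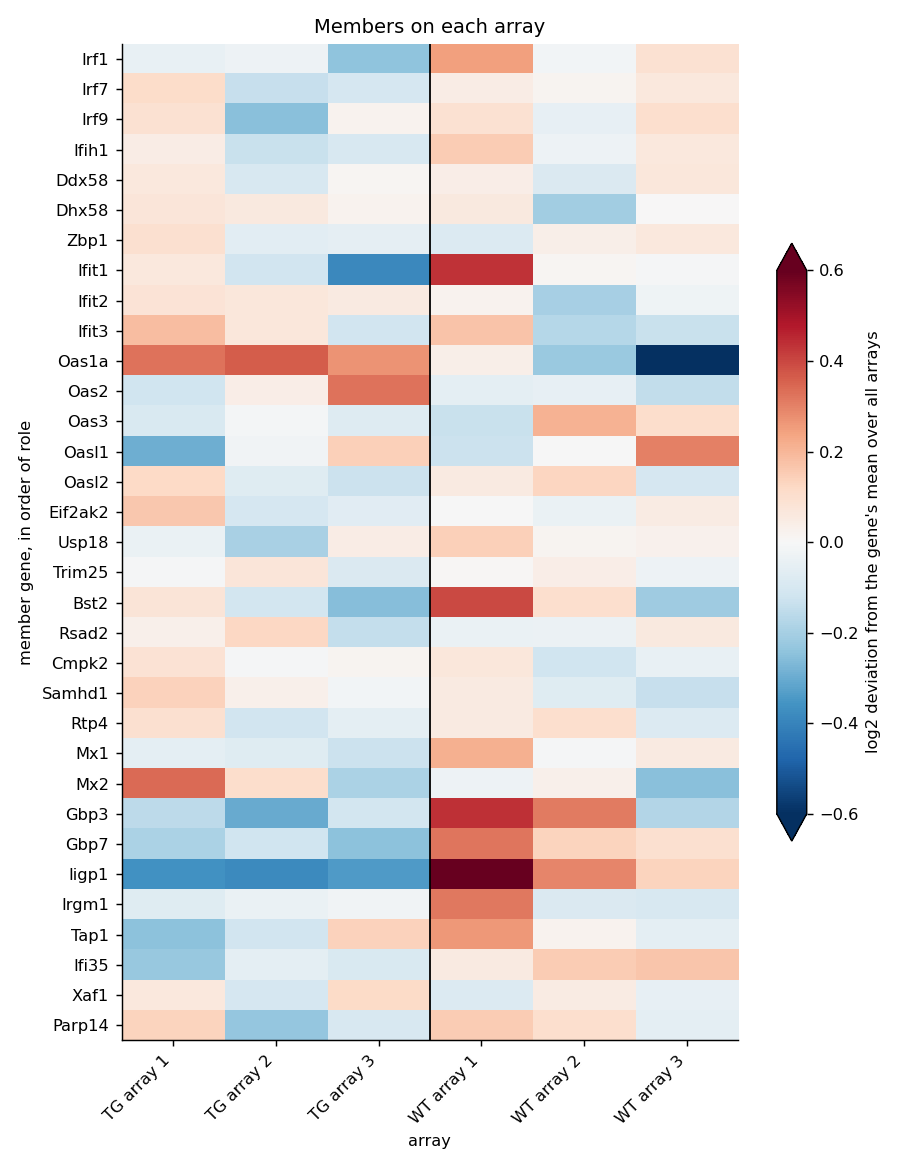
Log2 deviation of each measured member from its own mean over the 6 arrays (colour, red above and blue below, with values past 0.6 in the end colours), with arrays across, TG left of WT, and members down in order of role. Gbp3, Gbp7, Iigp1 and Irgm1 are highest on WT array 1, and Oas1a is lowest on WT array 3.

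The differences were also read beside the promoter motifs. Of the 12 measured members with an ISRE core in the promoter, 9 lay below 0 with a median difference of -0.10, and of the 12 with a promoter and no ISRE core, 8 lay below 0 with a median of -0.07. Of the 8 measured members with the STAT element, 5 lay below 0 with a median of -0.10, and of the 16 with a promoter and no STAT element, 12 lay below 0 with a median of -0.09. The members with both motifs included Gbp7 at -0.37 and Oas1a at 0.64, on opposite sides of 0. These are descriptions of small groups and no test was made of them.

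The other genes of the interferon pathway were read from 7 lists, with 139 of 171 genes measured, and 0 of them passed over all genes (limma). At an unadjusted p under 0.05, 8 of the 139 were lower and 2 higher in TG, shares near the 4.79% and 1.96% of all genes. The interferon genes themselves had 11 of 12 measured members below 0, with a median difference of -0.17, against 56.2% and -0.02 over all genes. The list averaged only 4.70 in TG and 4.84 in WT. The share below 0 differed with level, at 47.1% among genes above the median level, so 56.2% is not matched to this list. Ifna2, a type I interferon gene, measured 4.98, 5.27 and 4.95 on the TG arrays, against 5.31, 5.57 and 5.48 on the WT arrays (difference -0.39, SE 0.11; limma, adjusted p = 0.676). Ifnk stood at -0.24, Ifnb1 at -0.26 and Ifna4 at -0.19, all with TG and WT means between 3.30 and 4.15. Ifng, which encodes interferon gamma, measured 5.23, 5.13 and 5.08 in TG and 5.29, 5.06 and 5.01 in WT, a difference of 0.03.

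Receptors, kinases, STAT factors and further IRF genes had 9 of 15 members below 0 and a median of -0.01. Stat3 had the smallest p among them, with a difference of -0.30 (SE 0.07; limma, adjusted p = 0.660), followed by Stat2 at -0.17, Irf2 at 0.12 and Ifngr2 at -0.07. Ifnar1, Ifnar2 and Ifngr1, the other receptor genes looked up by name after the values were seen, stood at 0.08, -0.01 and 0.03. Among 12 genes that restrain the signal, 6 lay below 0, with Socs3 at -0.26 (SE 0.07; limma, adjusted p = 0.660), Pias1 at 0.09, Pias4 at -0.08 and the phosphatase Ptprc (CD45) at 0.12. The sensing adaptors and kinases had 11 of 16 below 0 and a median of -0.06, with Myd88 at 0.18, Ticam1 at -0.20, Tlr8 at -0.31 and Rnf125 at -0.26.

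The 64 further interferon-stimulated genes had 44 members below 0 and a median of -0.04, and 2 were lower and 1 higher at an unadjusted p under 0.05, against 4.79% and 1.96% of all genes. Gbp4 led them, followed by Lgals3bp at -0.20, the lysosomal thiol reductase gene Ifi30 at 0.28 and the death ligand gene Tnfsf10 (TRAIL) at -0.26. MHC class I and immunoproteasome genes had 12 of 13 below 0 and a median of -0.15, and 1 was lower at an unadjusted p under 0.05. The immunoproteasome subunit genes Psmb10 and Psmb8 stood at -0.17 and -0.16, the class I gene H2-M3 at -0.17 and the class I transactivator gene Nlrc5 at -0.11, none past adjustment. Psmb10, H2-M3 and Nlrc5, 3 of the 13, had all TG arrays below all WT arrays, against 7.76% of all genes. MHC class II genes had 6 of 7 below 0 with a median of -0.05, led by their transactivator Ciita at -0.16, with H2-Eb1 at -0.06, H2-Oa at -0.06 and H2-Aa at -0.04, all with overlapping groups.

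Markers of other cell types are given beside these values, and their part in them was not tested. The 17 T and NK cell markers, cells that make interferon gamma, averaged 4.89 to 4.97 on the TG arrays and 4.98 to 5.13 on the WT arrays, and 13 of them lay below 0. Cd3g, part of the T cell receptor complex, stood at -0.30 (SE 0.09) and the granzyme gene Gzmb at -0.21 (SE 0.07). Both had all TG arrays below all WT arrays, a pattern shown by 2 of the 17 markers and by 7.76% of all genes. Cd3g averaged only 3.76 in TG and 4.07 in WT. Cd3d and Cd3e, of the same complex, stood at 0.05 and 0.02 with overlapping groups. WT array 1, highest for the GTPase members, had the lowest T and NK cell average of the WT arrays. The 10 dendritic cell markers averaged 5.46 to 5.57 in TG and 5.55 to 5.62 in WT, with 6 below 0 and 4 above, and the transcription factor genes Zbtb46 at -0.28 and Batf3 at -0.11. The 8 B cell markers averaged 4.76 to 4.83 in TG and 4.76 to 4.84 in WT, with 4 below 0 and 4 above and a median of 0.02, Cd22 at -0.15 and Cd79b at -0.10 having the smallest p. The 18 macrophage markers, from cells that respond strongly to interferon, averaged 6.40 to 6.69 in TG and 6.30 to 6.59 in WT, with overlapping averages, 13 genes above 0 and 5 below, and Itgam at 0.57 and Tyrobp at 0.26.

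The 16 hepatocyte markers averaged 6.67, 7.99 and 5.77 on the TG arrays and 7.00, 7.54 and 7.58 on the WT arrays. All 16 lay below 0, with Serpina1c the farthest at -1.13, and Apoa1 at -0.78 and Ttr at -0.70 had the smallest p. TG array 2 had the highest hepatocyte average of all and TG array 3 the lowest, and Iigp1 measured 6.22 and 6.26 on them. Adipocyte markers averaged 6.44 to 6.58 in TG and 6.32 to 6.35 in WT, with 6 of 8 above 0, Adipoq at 0.64 and Plin1 at 0.21. Bone and osteoclast markers averaged 5.73 to 6.30 in TG and 5.63 to 5.85 in WT, with 9 of 14 above 0 and 5 below, Ctsk at 0.57 and Acp5 at 0.69. The averages of the next 3 lists overlapped between the groups. Of the fibroblast markers 9 of 10 lay above 0, with a median of 0.13, Pdgfra at 0.16 and Pi16, at -0.28, the one below 0. Of the endothelial markers 8 of 12 lay below 0, with Egfl7 at -0.25 and Pecam1 at 0.14, and of the neutrophil markers 5 of 11, with Ngp at 0.19 and S100a8 at -0.29. The 4 erythroid markers averaged 5.73 to 5.80 in TG and 5.82 to 5.95 in WT, with 3 below 0, Epb42 at -0.34 and Alas2 at 0.15. Of the 12 muscle fibre markers 10 lay below 0, with a median of -0.01, Myh2 at -0.30 and Myh1 at 0.06.

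**Figure D5:**
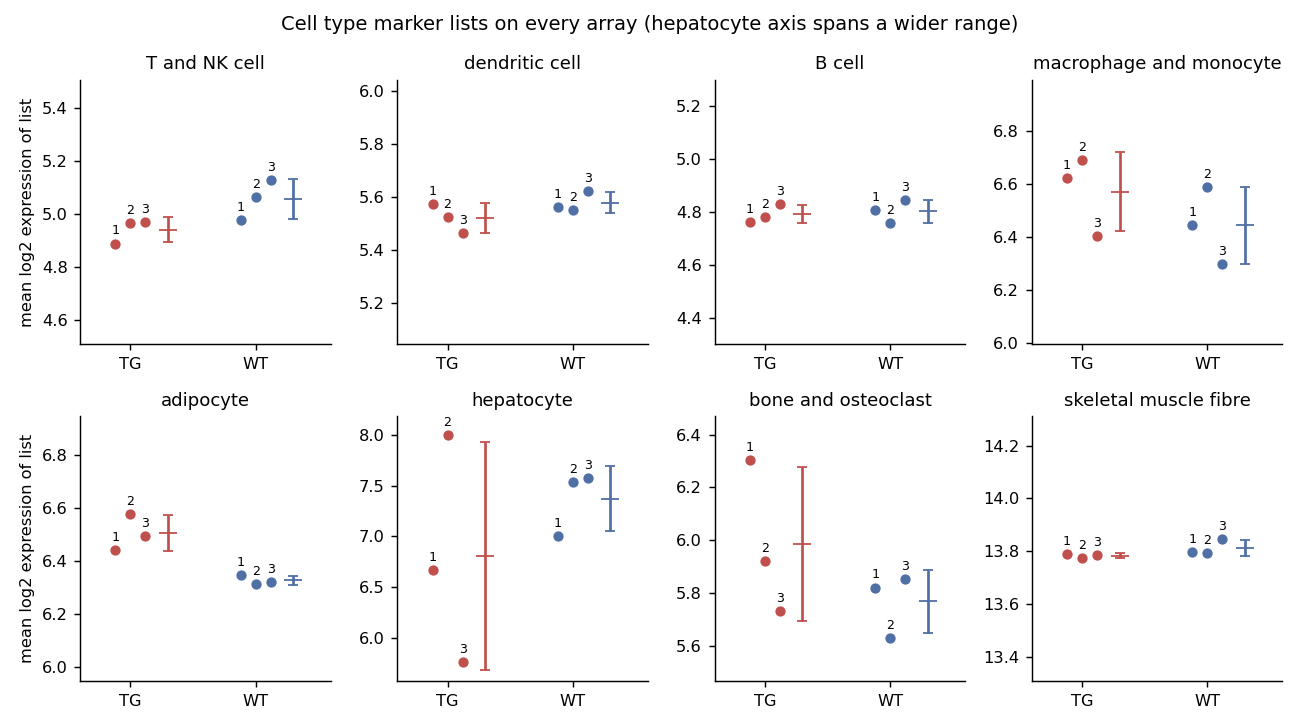
Mean log2 expression (y axis) of 8 cell type marker lists on the TG and WT arrays. Points are arrays with their replicate number, and the bar to the right is the mean with its SD. The T and NK cell list lies lower on all TG arrays than on all WT arrays, by a margin as narrow as 4.970 against 4.977. The skeletal muscle fibre list does so too, at 13.792 against 13.794. The adipocyte list lies higher on all TG arrays, and the hepatocyte list ranges from 5.77 to 7.99 within TG.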

How the data were processed

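Total RNA of frozen skeletal muscle was hybridised to Affymetrix MoGene arrays, per the labels' protocols and the design text. The deposited table holds 35557 probe sets on 6 arrays, in log2 units as judged from their span of 1.41 to 15.1. How the authors corrected background, summarized probes and normalized arrays is stated by no label or header, and raw intensities were not used, so no dim probe set was removed.

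Gene symbols came from the platform annotation: 21789 probe sets had 1 symbol, 1621 several and 12147 none. A gene took the probe set with its symbol alone and the highest mean over the arrays. TG was set against WT by a moderated linear model (limma version 3.58.1 run under R 4.3.3; both sides tested), with p adjusted by Benjamini-Hochberg over 19938 genes, at a threshold of 0.05, after a check on simulated data. Differences are TG minus WT, and "±" or SD is over 3 arrays. Shared probe sets were fitted with every probe set. The labels name no batch, so none could be split. Promoters came from RefSeq (GRCm38.p6), and all 33 measured symbols matched RefSeq by gene ID. Each array was left out in turn, and 8 other settings of the fit and 1 stricter call rule were tried. Figures were drawn with matplotlib 3.10.9.

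The members and lists were chosen with earlier results of these data known. Values on every array are given for members that do not overlap, have an unadjusted p under 0.05 or lead their role, and up to 4 genes of each pathway list and 2 of each marker list are named by smallest p.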

Additional observations from a re-analysis of the deposited data

How the results depend on the processing

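No member passed an adjusted p of 0.05 in limma under any of the 14 alternative fits, where 3 to 5 members were lower and 0 to 2 higher at an unadjusted p under 0.05. With a rule of unadjusted p under 0.01 and a fold of at least 1.5, 2 members counted as called, Iigp1 and Oas1a, among 31 genes in all (0.155%). The 13 members described with every array kept their sign in every fit that held them. Over all genes, the 1 call became 7 with an intensity trend, 2 among genes above the median level, and 0 with robust moderation, a common array median, every probe set, or any 1 array left out (0 to 0). Those fits with 0 calls had 1307, 1305, 969 and, with arrays left out, 1040 to 1565 at an unadjusted p under 0.05. Leaving out arrays gave 1 to 2 members higher at an unadjusted p under 0.05, against 1 with all arrays (2 without TG array 1 or TG array 3), and none among genes above the median level (0). The number of members below 0 was 19 to 23 without each array, 21 with quantile normalization and 19 with a common median. Among the 18 members above the median level it was 17, against 47.1% of all such genes. For the fits without 1 array, with quantile normalization and with a common median, the share of all genes below 0 was not counted. The median member difference stayed between -0.12 and -0.04. The adjusted p of Iigp1 ranged from 0.179 with the trend to 0.896 without TG array 1. Leaving out 1 array moved the differences of Ifit1 (-0.39 to -0.15), Ifit2 (0.07 to 0.18), Usp18 (-0.18 to -0.06), Tap1 (-0.25 to -0.05), Samhd1 (0.06 to 0.15), Mx1 (-0.22 to -0.11), Ifih1 (-0.17 to -0.08) and Oas1a (0.41 to 0.81). The cause of these shifts was not tested. Signal over background could not be assessed. No paired analysis was possible because the replicate numbers follow deposit order and pair no mice.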
